A study of Mus musculus with 6 samples.

Results

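The STAT transcription factors and the SOCS-family inhibitors that restrain them were followed in mouse macrophages engineered to carry a chimeric antigen receptor. The set holds 9 genes of the 22063 in the deposited table: the transcription factors Stat2, Stat3, Stat5a, Stat5b and Stat6, and the inhibitors Socs1, Socs2, Socs3 and Cish. They were picked out by gene symbol, with no threshold on their values, and each symbol matched 1 row. Of the 9 genes, 8 had enough reads to be tested, and Socs2 did not.

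RNA sequencing compared 3 samples of CAR-Ms with 3 samples of CAR-Trem2-Ms. All were macrophages, with skin given as the tissue, kept in complete DMEM with M-CSF, which macrophages need to differentiate, at 20 ng/mL over 7 days. A lentivirus was used on all of them to bring in the chimeric antigen receptor, which lets a cell recognise a target picked in advance. The genotype field reads WT for CAR-Ms and TERM2+ for CAR-Trem2-Ms. The labels of CAR-Trem2-Ms also list 24 h of 1 µM VD3 and flow cytometry as the means of sorting. A protocol text common to all samples also names VD3, so the labels do not settle whether CAR-Ms received it. Neither the promoter of the lentiviral vector nor the age or strain of the mice is stated in the sources used here. The effects of genotype, sorting and possibly VD3 cannot be told apart in these samples. Whether replicates were separate cultures or separate mice is not labelled, and the p-values therefore rest on a spread between samples that may be technical.

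Cytokine receptors without kinase activity of their own are bound by Janus kinases (JAKs), which phosphorylate STAT proteins when a cytokine binds. Phosphorylated STATs pair, enter the nucleus and bind DNA. SOCS proteins and CISH are made in response to this signal and close the loop: they bind the receptor or the kinase and, through a domain called the SOCS box, recruit a ubiquitin ligase. In macrophages STAT2 serves interferon, STAT3 serves interleukin 10 and interleukin 6, STAT5 serves GM-CSF and STAT6 serves interleukin 4 and interleukin 13. The activity of a STAT protein depends on its phosphorylation, which RNA levels do not show.

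The CAR-Ms libraries held 14204468 to 15913100 counts each and the CAR-Trem2-Ms libraries 9804959 to 12558021. Levels are counts scaled to library size with TMM factors (CPM), and a fold change above 1 means a higher level in CAR-Trem2-Ms. A gene was called changed at a Benjamini-Hochberg adjusted p under 0.05 in edgeR's quasi-likelihood test over 11402 tested genes. Such calls were the rule in these samples: 81.1% of tested genes passed, 40.9% higher and 40.1% lower, and 33.0% passed with a change of at least 2-fold. The macrophage markers Csf1r, Cd68 and Lyz2 were abundant in both groups, and the 7 macrophage markers summed to 3295 to 3310 CPM in CAR-Ms, against 3430 to 3443 CPM in CAR-Trem2-Ms. Of these 7, 6 were tested, of which 4 were higher and 2 lower. Lyz2 rose from 1315 ± 10.2 to 1776 ± 10.5 CPM (SD, 3 samples a group) and Fcgr1 from 35.8 ± 0.57 to 131.7 ± 3.18 CPM, whereas Csf1r fell from a mean of 1264 to 862.1 CPM and Cd68 from 638.9 to 601.5 CPM, with no overlap between groups. Mertk was near 0, with means of 0.022 and 0.16 CPM. Transcripts of the mitochondrial genome took 4.6% to 4.7% of the counts of CAR-Ms libraries, against 13.38% to 13.8% in CAR-Trem2-Ms.

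Of the 8 tested genes, 6 changed. Stat2, Stat5a, Socs1 and Socs3 were higher in CAR-Trem2-Ms, Stat3 and Stat6 were lower, and Stat5b and Cish did not pass. That share is near the 81.1% of all tested genes. The same 6 genes did not overlap between the groups in CPM, as did not 81.8% of tested genes. Changes of at least 2-fold were found for Stat2, Stat3 and Socs1. Stat2 and Stat3 kept their direction and their call on each of the scales tried, whereas the smaller changes of Stat5a, Stat6, Socs1 and Socs3 did not, and Stat5b was called in opposite directions on different scales. In bulk RNA, a change in the share of cells that express a gene and a change in RNA per cell cannot be told apart.

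**Figure D1:**
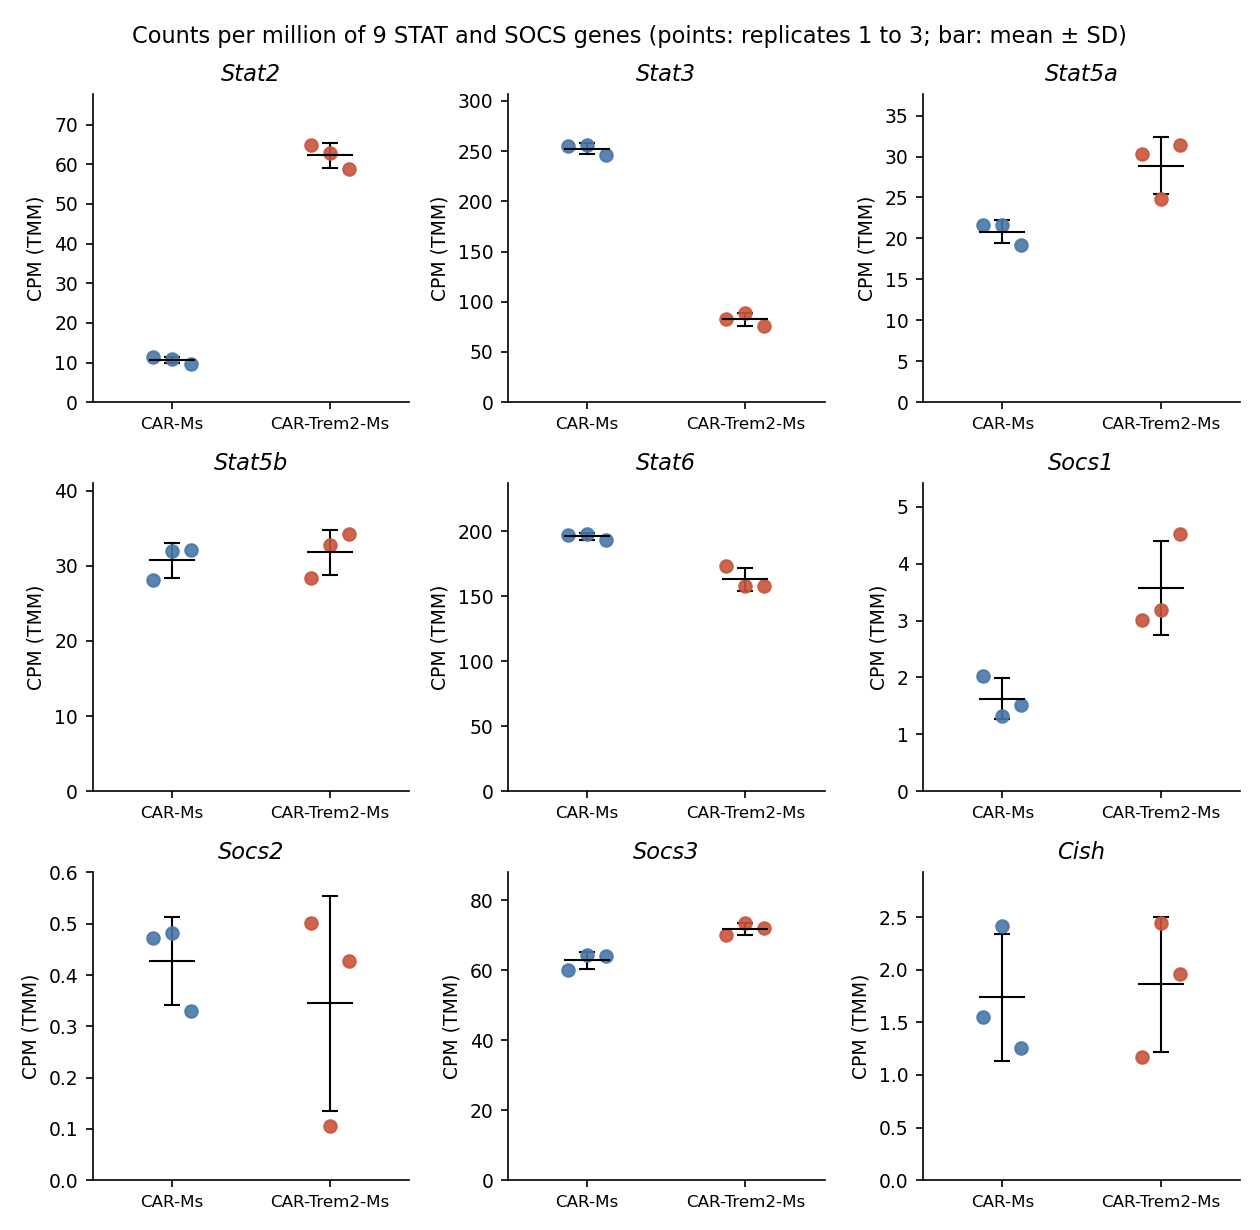
CPM with TMM factors (y axes, each starting at 0) for the 9 genes in 3 CAR-Ms (blue) and 3 CAR-Trem2-Ms (red) samples; points are replicates 1 to 3 and bars the mean ± SD. Stat2 moved from about 11 to 62 CPM and Stat3 from 252 to 83 CPM, while the groups overlap for Stat5b, Socs2 and Cish.

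Stat2 encodes the STAT protein that joins IRF9 in the interferon-stimulated complex. It lies on chromosome 10, from 128270559 to 128292849 on the plus strand (ENSMUSG00000040033, GRCm38, 19 merged exons). CAR-Ms replicates 1, 2 and 3 gave 11.4, 10.9 and 9.75 CPM, and CAR-Trem2-Ms gave 64.9, 62.9 and 58.9 CPM. Each CAR-Trem2-Ms sample was far above each CAR-Ms sample. The mean went from 10.7 ± 0.84 CPM up to 62.2 ± 3.05 CPM (SD, n = 3 per group), 5.83-fold higher (log2 2.54 ± 0.09 SE; edgeR, adjusted p = 5.2e-20). The rise ranged from 1.63 to 2.78 on the log2 scale over the 18 alternative fits and passed in all 18.

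A promoter sequence is shown for Stat2, the largest rise of the set, and for Socs1, whose promoter holds matches to the same motif. The 250 bases before each RefSeq start site (GRCm38.p6) are printed 5′ to 3′, and capitals mark matches to TTTCNNTTTC on either strand, the core of the element that interferon-stimulated complexes bind. In Stat2 (chr10:128270248-128270497, plus strand) the match runs from 222 to 213 bases before the start. In Socs1 (chr16:10785537-10785786, minus strand) there are 2 overlapping matches, from 83 to 74 and from 77 to 68 bases before the start.
Stat2: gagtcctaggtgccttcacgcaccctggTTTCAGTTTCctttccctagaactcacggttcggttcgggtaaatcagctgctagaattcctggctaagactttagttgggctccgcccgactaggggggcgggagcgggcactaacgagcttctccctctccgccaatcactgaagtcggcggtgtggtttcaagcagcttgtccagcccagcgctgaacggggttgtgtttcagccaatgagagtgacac
Socs1: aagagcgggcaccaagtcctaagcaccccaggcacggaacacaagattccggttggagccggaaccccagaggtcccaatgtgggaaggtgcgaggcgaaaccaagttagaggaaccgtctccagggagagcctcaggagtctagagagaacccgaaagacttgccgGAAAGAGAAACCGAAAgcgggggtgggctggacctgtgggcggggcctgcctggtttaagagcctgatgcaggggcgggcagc
The motif occurs in 3.44% of the 32851 promoters in the same RefSeq table, each 300 bases long (250 before and 50 after the start). RefSeq promoters were found for 8 of the 9 genes, 10 promoters in all, of which 4 held at least 1 match to the motifs searched. The share of all promoters that hold any of these motifs was not counted, so this count cannot be read as an excess. A match describes the letters and shows no binding.

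Stat3, the mediator of interleukin 10 and interleukin 6 signals, was the largest fall. It lies on chromosome 11, from 100885098 to 100939540 on the minus strand (ENSMUSG00000004040, 21 merged exons). CAR-Ms gave 254.9, 256.2 and 246.2 CPM, and CAR-Trem2-Ms gave 82.6, 89.3 and 75.8 CPM. The groups did not overlap, and the samples within a group lay close together. The mean fell from 252.4 ± 5.41 to 82.6 ± 6.73 CPM, a change of -1.62 ± 0.05 (log2, SE), or 3.07-fold lower (edgeR, adjusted p = 9.1e-23). It was between -2.31 and -1.30 over the 18 alternative fits and passed in each.

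Stat5a and Stat5b are near-identical neighbours that carry GM-CSF and related signals. Stat5b (minus strand, from 100780731 to 100850724) and Stat5a (plus strand, from 100859351 to 100885169) lie 8626 bases apart on chromosome 11, and Stat5a overlaps the end of Stat3 by 72 bases on the opposite strand. Of all 50-base windows in the longest transcript, 10.8% in Stat5a also occur in Stat5b and 11.8% in Stat5b also occur in Stat5a, so the authors' counting could split or drop such reads. Stat5a, Stat5b and Stat3 thus sit within 158810 bases of each other, and of the 3 only Stat3 moved by more than 2-fold.

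For Stat5a, CAR-Ms gave 21.6, 21.6 and 19.2 CPM, and CAR-Trem2-Ms gave 30.3, 24.9 and 31.4 CPM. The groups did not overlap, but CAR-Trem2-Ms replicate 2 stood closer to CAR-Ms than the other two did. The log2 change was 0.48 ± 0.11 (SE), or 1.39-fold (edgeR, adjusted p = 2.1e-04). Stat5a was called lower on log2(TPM + 1) (-0.38, limma adjusted p = 0.00199) and was not called with a GC content and length trend removed (0.20, edgeR adjusted p = 0.0958). For Stat5b, CAR-Ms gave 28.1, 32.0 and 32.1 CPM, and CAR-Trem2-Ms gave 28.4, 32.7 and 34.2 CPM. The groups overlapped over nearly their whole range, and the change of 0.05 ± 0.09 (log2, SE) did not pass (edgeR, adjusted p = 0.646). Stat5b was called higher with upper quartile factors (0.28, edgeR adjusted p = 0.00821) and with the GC content and length trend removed (0.27, adjusted p = 0.0114), and lower on log2(TPM + 1) (-0.57, limma adjusted p = 0.0014). In TPM its groups did not overlap, with 8.82 to 10.05 TPM in CAR-Ms against 5.44 to 6.66 TPM in CAR-Trem2-Ms.

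Stat6, which switches on alternative activation genes, was abundant in both groups. It lies on chromosome 10, from 127642986 to 127660957 on the plus strand, about 609.6 kb from Stat2. CAR-Ms gave 197.0, 198.0 and 193.4 CPM, and CAR-Trem2-Ms gave 173.6, 158.1 and 158.1 CPM. The groups did not overlap, but the gap was small beside that of Stat3. The fall was 0.26 on the log2 scale (-0.26 ± 0.04 SE; edgeR, adjusted p = 8.5e-07) and did not pass with upper quartile factors (-0.031, edgeR adjusted p = 0.48).

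Socs1 blocks JAK activity after interferon. It is a small gene on chromosome 16, from 10782240 to 10785536 on the minus strand (ENSMUSG00000038037, 2 merged exons). The CAR-Ms libraries held 30, 22 and 23 reads, and the CAR-Trem2-Ms libraries 36, 30 and 53. In CPM these are 2.02, 1.33 and 1.52 against 3.01, 3.19 and 4.52, with no overlap and the highest value in CAR-Trem2-Ms replicate 3. The rise was 2.21-fold (log2 1.14 ± 0.34 SE; edgeR, adjusted p = 0.00299). With so few reads the SE was the second largest of the tested members, and the call was lost on log2(TPM + 1) (0.21, limma adjusted p = 0.276) and with a GC content and length trend removed (0.64, edgeR adjusted p = 0.084).

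Socs3 binds the interleukin 6 receptor chain and JAKs and limits STAT3 signalling. It lies on chromosome 11, from 117966079 to 117970047 on the minus strand (ENSMUSG00000053113, 4 merged exons). CAR-Ms gave 59.9, 64.5 and 64.0 CPM, and CAR-Trem2-Ms gave 70.1, 73.5 and 72.0 CPM. The groups did not overlap, and the difference was small: 1.14-fold (log2 0.19 ± 0.06 SE; edgeR, adjusted p = 0.00438). Its direction depended on the scale. It was -0.48 on log2(TPM + 1) in limma and -0.36 with the GC content and length trend removed, both called lower, and it did not pass with total-count scaling (0.068, edgeR adjusted p = 0.297).

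Cish and Socs2 restrain STAT5 and are classic STAT5 target genes. Cish (chromosome 9, from 107296026 to 107302784, plus strand) had 23, 40 and 19 reads in CAR-Ms, against 14, 23 and 23 in CAR-Trem2-Ms, or 1.55, 2.41 and 1.25 against 1.17, 2.44 and 1.96 CPM. The groups overlapped fully, and the change of 0.07 ± 0.40 (log2, SE) did not pass (edgeR, adjusted p = 0.874). In its longest transcript, 13.2% of 50-base windows occur in other genes too. Socs2 (chromosome 10, from 95385362 to 95417180, minus strand) was covered by 7, 8 and 5 reads in CAR-Ms, against 6, 1 and 5 in CAR-Trem2-Ms. These are 20 and 12 reads over each group, so a difference was not detectable at this depth.

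Short stretches of 30 bases of the Socs3 and Cish promoters are shown because they hold TTCNNNGAA, the core that STAT dimers bind, marked in capitals. The Socs3 stretch (chr11:117969502-117969531, minus strand, GRCm38.p6) holds 1 match, from 154 to 146 bases before the start. The Cish stretch (chr9:107296654-107296683, plus strand) holds 2 matches, at bases 1 to 9 and 12 to 20 counted from the start, within an annotated exon.
Socs3: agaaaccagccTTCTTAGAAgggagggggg
Cish: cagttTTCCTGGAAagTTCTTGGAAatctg
The motif, which reads the same on both strands, occurs in 8.3% of the 32851 RefSeq promoters. The longer form TTCNNNNGAA, found in 6.95% of promoters, occurs among these genes in the Stat2 promoter, from 210 to 201 bases before the start and left in lower case above.

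Read counts do not compare one gene with another, because longer transcripts give more reads; the deposited TPM values, which are scaled for transcript length, do. In CAR-Ms, Stat6 (94.8 ± 3.84 TPM, SD, n = 3) and Stat3 (94.1 ± 2.92 TPM) overlapped at the top. Socs3 followed at 42.2 ± 1.82 TPM, then Stat5a at 11.3 ± 0.24, Stat5b at 9.63 ± 0.70 and Stat2 at 3.91 ± 0.30 TPM, each apart from the next. Cish, Socs1 and Socs2 overlapped at about 1 TPM. In CAR-Trem2-Ms the order was Stat6 (45.8 ± 2.72 TPM), Socs3 (30.0 ± 0.92), Stat3 (18.9 ± 1.44), Stat2 (14.2 ± 0.63), Stat5a (8.42 ± 0.20), Stat5b (6.17 ± 0.64), Socs1 (from 1.11 to 1.65), Cish (0.68 ± 0.24) and Socs2 (0.16 ± 0.10), with no overlap between neighbours. Stat3 thus moved from the level of Stat6 to below Socs3, and Stat2 from below Stat5b to above Stat5a.

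**Figure D2:**
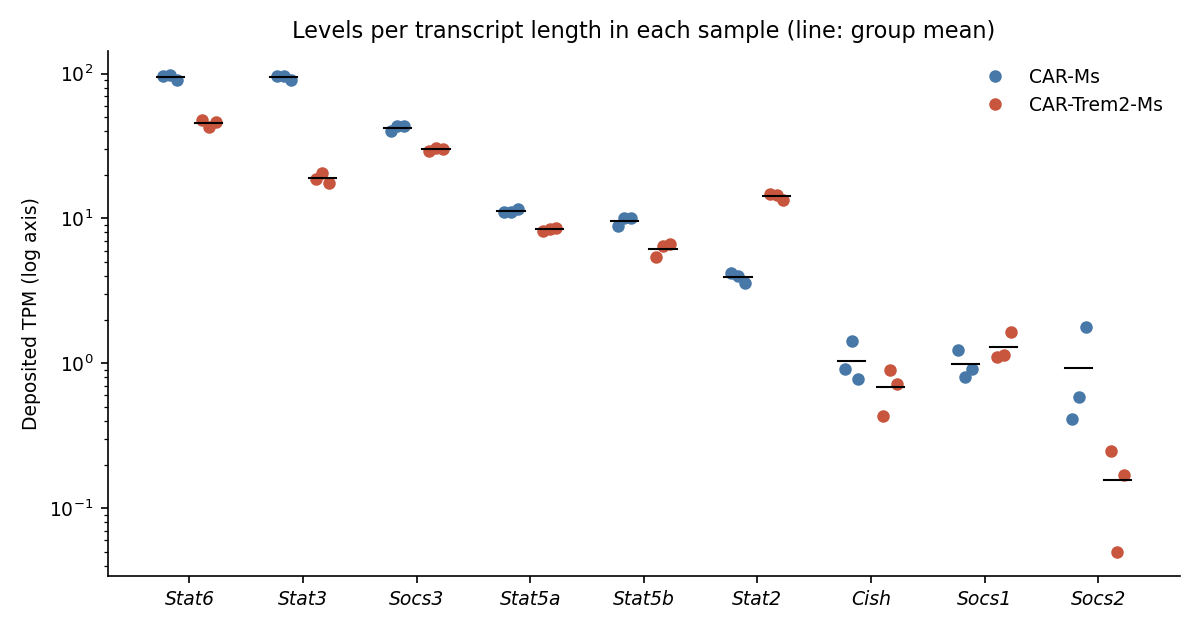
Deposited TPM (log axis) of each gene in 3 CAR-Ms (blue) and 3 CAR-Trem2-Ms (red) samples, ordered by the CAR-Ms mean; points are samples and lines group means. Stat3 and Stat6 overlap near 94 TPM in CAR-Ms and lie apart, at 18.9 and 45.8 TPM, in CAR-Trem2-Ms.

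The makeup of the STAT transcripts was also read as shares of the summed TPM of the 5 STAT genes, which do not depend on the scale between libraries. Stat3 made up 44.5%, 43.7% and 43.9% in CAR-Ms but 19.6%, 22.1% and 18.9% in CAR-Trem2-Ms. Stat2 made up 1.94%, 1.81% and 1.74% in CAR-Ms but 15.5%, 15.6% and 14.5% in CAR-Trem2-Ms. Stat2 and Stat3 therefore moved in opposite directions within the pool, with no overlap between groups. Stat6 held 44.4 ± 0.47% and 49.0 ± 2.36% (SD, n = 3 each), Stat5a 5.28 ± 0.27% and from 8.63% to 9.27%, and Stat5b 4.51 ± 0.39% and 6.61 ± 0.78%. The pool itself summed to 213.8 ± 6.47 TPM in CAR-Ms and 93.5 ± 1.40 TPM in CAR-Trem2-Ms. A larger share is therefore not a higher level: Stat6, Stat5a and Stat5b were each lower in TPM in CAR-Trem2-Ms.

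Ratios of reads within a library gave the same kind of scale-free view for pairs of an inhibitor and a STAT, or of 2 family members. Of 8 ratios compared, 2 of them (Stat2 to Stat3 and Stat3 to Stat6) added after seeing the data, 5 did not overlap between groups. Single genes did not overlap in 81.8% of those tested. The share of all gene pairs whose ratio does not overlap was not counted, so the 5 cannot be read as an excess. With 3 samples against 3, a two-sided exact permutation test cannot go below p = 0.1. Those 5 ratios reached that value (0.16 adjusted over the 8 ratios), so none could pass. For every Stat3 read there were 0.24, 0.25 and 0.26 Socs3 reads in CAR-Ms, against 0.85, 0.82 and 0.95 in CAR-Trem2-Ms, a ratio 3.51-fold higher. For every Stat3 read there were 0.0448, 0.0425 and 0.0397 Stat2 reads in CAR-Ms, against 0.79, 0.70 and 0.78 in CAR-Trem2-Ms, or 17.9-fold more. Both ratios kept their direction with each sample left out and with TPM in place of counts.

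Socs1 fell behind Stat2: its reads per Stat2 read were 0.18, 0.12 and 0.16 in CAR-Ms, against 0.0470, 0.0515 and 0.0775 in CAR-Trem2-Ms, 2.67-fold lower. Socs3 reads per Socs1 read were 29.2, 47.5 and 41.4 in CAR-Ms, against 23.0, 22.7 and 15.8 in CAR-Trem2-Ms, 1.91-fold lower. The ratio of Stat3 to Stat6 went from 1.29, 1.29 and 1.27 to 0.48, 0.56 and 0.48. The ratio of Stat5a to Stat5b overlapped, from 0.60 to 0.77 in CAR-Ms, against from 0.76 to 1.07 in CAR-Trem2-Ms (exact permutation p = 0.2; 0.267 adjusted over the 8 ratios), as did Cish and Socs2 per STAT5 read (exact permutation p = 0.7 and 0.3; 0.7 and 0.343 adjusted).

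**Figure D3:**
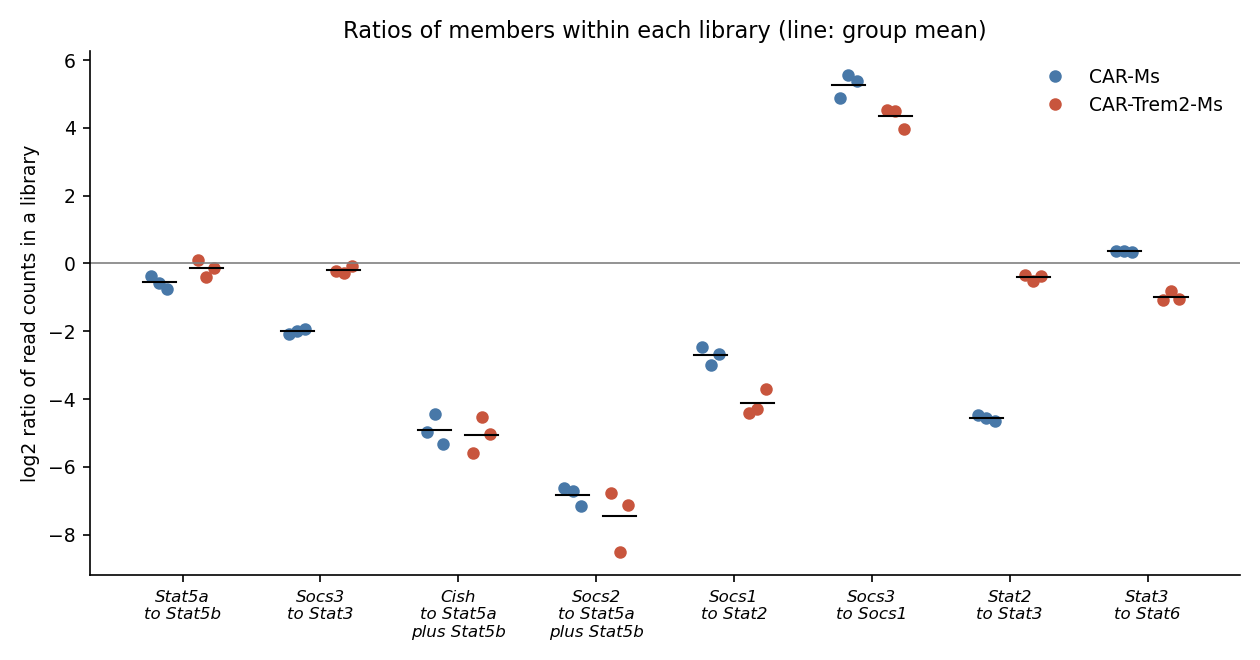
Log2 ratio of read counts of 2 members within a library (y axis) for 8 ratios, in 3 CAR-Ms (blue) and 3 CAR-Trem2-Ms (red) samples, lines being group means. The groups lie apart for 5 ratios, most widely for Stat2 to Stat3 (means of -4.56 and -0.41), and overlap for Stat5a to Stat5b, Cish and Socs2.

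The 2 deposited units, and the ways to scale them, place most of these genes differently. Across all tested genes, the log2 fold change had a median of 0.03 under TMM, but 0.26 under upper quartile factors, -0.10 without factors and -0.63 on log2(TPM + 1), a scale that understates the change of low genes. Under upper quartile factors 5 members were called higher and 1 lower, beside 50.1% and 31.6% of all genes. With total-count scaling 3 members were called higher and 2 lower, beside 36.4% and 44.7%. With the GC content and length trend removed 2 members were called higher and 3 lower, beside 40.4% and 39.1%. On log2(TPM + 1), limma called 81.6% of 10824 genes, 17.5% higher and 64.2% lower. Of the members, 7 entered that fit, and Stat2 alone was called higher (1.63), with Stat3 (-2.26), Stat6 (-1.03), Stat5b (-0.57), Socs3 (-0.48) and Stat5a (-0.38) called lower. Counts as a share of the library, divided by TPM, were a median of 1.48 times higher in CAR-Trem2-Ms over 11236 genes (quartiles 1.47 and 1.53), so the units differ by a nearly common factor. Stat2, Stat3, Stat5b, Socs3, Cish and Socs1 had factors of 1.47 to 1.53, Stat6 1.58, Stat5a 1.70 and Socs2 2.83. Socs2 was listed at 1.79 TPM in CAR-Ms replicate 3 with 5 reads and at 0.41 TPM in replicate 1 with 7 reads, so its TPM did not follow its reads.

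**Figure D4:**
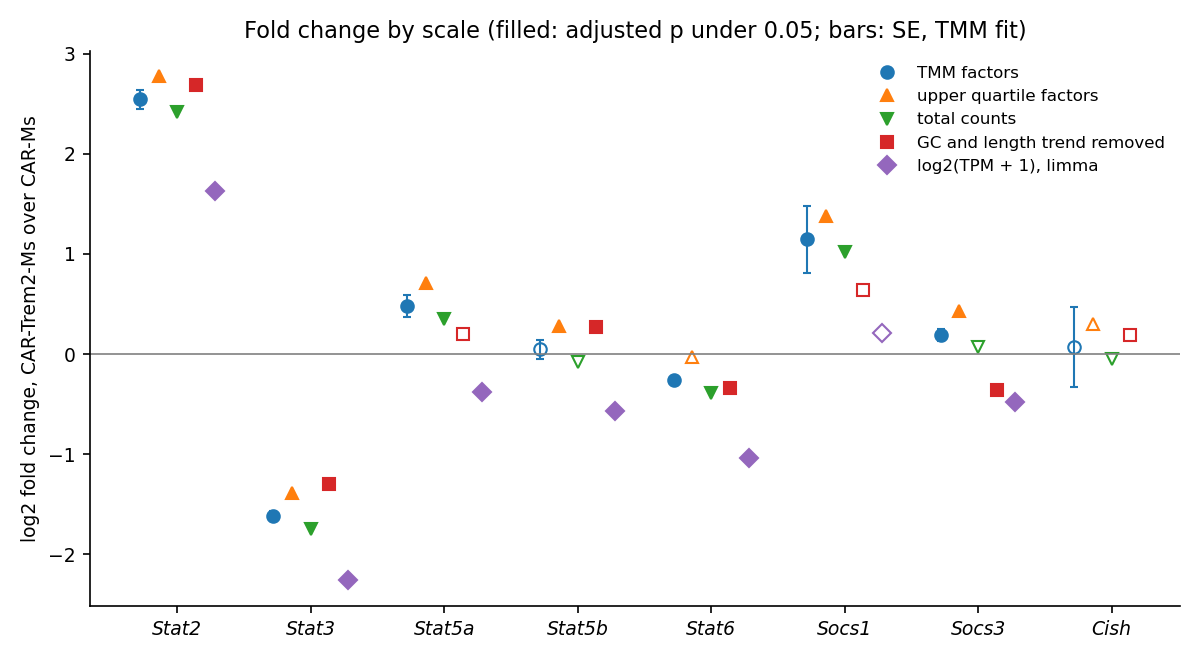
Log2 fold change of the 8 tested genes (y axis) with TMM, upper quartile and total-count scaling, with a GC content and length trend removed, and on log2(TPM + 1); filled symbols passed at an adjusted p under 0.05 and bars are the SE of the TMM fit. Stat2 stays above 1.6 and Stat3 below -1.2 on each scale shown, while Socs3 and Stat5a lie on both sides of 0.

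The authors' deposited table gives log2 ratios of TPM means and their own adjusted p-values. Their test is not named, so an adjusted p-value need not refer to the TPM ratio listed beside it. The authors' deposited table lists Stat2 at 1.86 (8.5e-137) and Stat3 at -2.32 (1.6e-257). In the authors' deposited table Stat6 stands at -1.05 (8.9e-12), Socs3 at -0.49 (0.0204) and Stat5a at -0.42 (1.6e-04). Stat5b at -0.64 (0.928), Cish at -0.61 (0.931) and Socs2 at -2.57 (0.828) did not pass in the authors' deposited table, although their listed ratios are larger in size than those of Stat5a. Socs1 rose in the authors' deposited table, at 0.40 (0.00316). In edgeR on counts without a filter, adjusted p-values were similar for Stat5a (1.1e-04), Socs3 (0.0286), Stat5b (0.938) and Cish (0.941). In that fit Stat5a (0.44) and Socs3 (0.15, log2) were higher in CAR-Trem2-Ms, opposite to their deposited TPM ratios. Their deposited adjusted p-values therefore cannot be read as support for a fall.

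Beyond the 9 genes, 135 genes of the same pathway were read in 10 lists, some genes in more than 1 of them. Of these genes, 91 were tested, and 54 were higher and 22 lower, with a median log2 fold change of 0.51. That is 83.5% called, against 81.1% of all genes. The count of each list below is to be read beside the shares of all tested genes. These were 40.9% higher and 40.1% lower with TMM factors, and 17.5% and 64.2% on log2(TPM + 1).

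STAT2 works with IRF9 on interferon-stimulated genes. All 8 genes of that list were higher (median 4.09), and the 6 that entered the TPM fit were higher there too. Of all tested genes, 40.9% were higher with TMM factors and 17.5% on log2(TPM + 1). The list was chosen with earlier results of these data known, so its count is no independent support. Irf9, named after its values were seen, rose 2.73-fold from 29.7 ± 2.18 to 81.0 ± 4.65 CPM (SD over 3 samples, as in the values that follow). Irf7, an amplifier of interferon production, rose 30.4-fold from 2.36 ± 0.18 to 72.0 ± 4.76 CPM. Rtp4 and Oasl2, interferon-induced genes, rose by 6.03 ± 0.20 and 6.86 ± 0.28 (log2, SE). Both were near the floor in CAR-Ms, with 7, 10 and 6 reads of Rtp4 and 5, 3 and 1 of Oasl2. The size of the rise is therefore uncertain: over the alternative fits it ran from 4.31 to 6.26 for Rtp4 and from 3.31 to 7.43 for Oasl2. Among 12 other negative regulators of the pathway, 6 rose and 4 fell (median 0.07; 3 higher and 9 lower on log2(TPM + 1)). Usp18, which shuts off the type I interferon receptor, rose 36.5-fold, from 0.58 ± 0.21 to 21.5 ± 1.75 CPM. It too was near the floor in CAR-Ms, with 5, 11 and 11 reads, so the size of its rise is uncertain. On the log2 scale the rise of Usp18 ran from 3.30 to 5.42 over the alternative fits. Pias4 rose by 1.46 ± 0.10, and Ptpn11, which encodes the phosphatase SHP2, fell from 194.8 ± 4.94 to 80.4 ± 2.96 CPM.

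The kinases split. Jak1, which most cytokine receptors of the pathway use, fell from 293.9 ± 8.14 to 104.0 ± 3.75 CPM, 2.82-fold lower. Tyk2, its partner at the interferon receptor, rose 2.51-fold from 65.4 ± 2.11 to 164.5 ± 3.93 CPM, and Jak3, the kinase of the common gamma chain, rose 3.77-fold from 9.65 ± 0.96 to 36.4 ± 2.17 CPM. Jak2, named after its values were seen, stood at 53.7 ± 1.07 and 53.4 ± 2.99 CPM and did not pass. Of the 4 kinases, 3 were higher and 1 lower under upper quartile factors, and 2 higher and 2 lower on log2(TPM + 1).

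Of 32 cytokine receptor genes, 19 had enough reads to be tested, and 10 rose, 4 fell and 5 did not pass (median 0.39). On log2(TPM + 1), 3 of 15 were higher and 7 lower. Among all tested genes 40.9% were higher and 40.1% lower with TMM factors, and 17.5% and 64.2% on log2(TPM + 1). Csf2ra, 1 chain of the GM-CSF receptor, rose 7.46-fold from 12.4 ± 1.37 to 92.6 ± 2.74 CPM, and Csf3r and Crlf2 rose 5.35-fold and 3.60-fold. Csf2rb, the other chain of the GM-CSF receptor, was named after its values were seen. It stood at 17.4 ± 1.35 CPM in CAR-Ms and 17.2 ± 1.67 CPM in CAR-Trem2-Ms and did not pass (edgeR, adjusted p = 0.961). The 4 that fell, named after their values were seen, were Il6ra, Il6st, Il4ra and Il13ra1. Il6ra fell from 111.9 ± 4.15 to 51.2 ± 2.01 CPM and Il6st, its signalling chain, from 180.0 ± 3.88 to 122.5 ± 5.54 CPM. Il4ra fell 2.46-fold, from a mean of 18.1 to 7.42 CPM, and Il13ra1 by 0.56 ± 0.11 on the log2 scale (SE). Il10ra and Il10rb, the interleukin 10 receptor chains, rose 1.34-fold and 1.76-fold, though their groups overlapped in TPM; both were named after their values were seen. Of 26 cytokine ligands, 8 were tested, of which 6 rose and 1 fell (median 1.25; 5 of 9 higher and 1 lower on log2(TPM + 1)). Csf3, which encodes G-CSF, rose 14.2-fold from 1.49 ± 0.25 to 21.4 ± 1.93 CPM, and Ebi3 and Lif rose 2.71-fold and 2.61-fold.

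Among the family members outside the set, 4 of 5 were tested. Socs7 fell from 76.3 ± 0.35 to 30.6 ± 3.49 CPM and Socs6 from 80.1 ± 3.35 to 34.9 ± 3.60 CPM, while Socs5 rose 1.41-fold with TMM factors and was lower on log2(TPM + 1) (-0.49). Of the partners that the SOCS box recruits, Cul5, the cullin scaffold of the ligase, fell from 150.4 ± 1.96 to 71.9 ± 1.25 CPM. Rnf7 and Rbx1, RING subunits, rose 1.86-fold and 1.82-fold, Rbx1 turning to -0.026 on log2(TPM + 1), where it did not pass. In that list 4 rose and 1 fell with TMM factors, and 1 was higher and 3 lower on log2(TPM + 1).

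The lists of STAT target genes held calls in both directions, as did all tested genes (40.9% higher and 40.1% lower with TMM factors, 17.5% and 64.2% on log2(TPM + 1)). Of 17 tested STAT3 targets, 11 rose and 5 fell (median 0.85; 8 higher and 8 lower on log2(TPM + 1)). Cebpb, a myeloid transcription factor, rose 7.31-fold from 43.7 ± 1.13 to 319.0 ± 15.5 CPM and Myc 7.25-fold from 3.61 ± 0.28 to 26.2 ± 3.02 CPM, while Il1rn, the interleukin 1 receptor antagonist, fell by 1.91 ± 0.26 on the log2 scale. Of 12 tested STAT5 targets, 4 rose and 4 fell (median 0.10; 2 of 11 higher and 7 lower on log2(TPM + 1)). Bcl6, a repressor, rose 2.48-fold, Id1 rose 2.48-fold and Ccnd3, a cyclin, fell from 104.1 ± 3.90 to 55.1 ± 3.57 CPM. Of 18 STAT6 targets of alternative activation, 7 could be tested, of which 3 rose and 3 fell (median 0.32; 2 higher and 3 lower on log2(TPM + 1)). Clec10a, a lectin, rose 6.14-fold to 13.1 ± 1.05 CPM and Klf4 rose 2.08-fold to 100.6 ± 2.29 CPM, whereas Il4ra, also a target, fell as given above. Many of these targets answer to other transcription factors as well. The lists do not separate targets that a STAT induces from those it represses, so a rise or fall cannot be read as STAT activity.

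**Figure D5:**
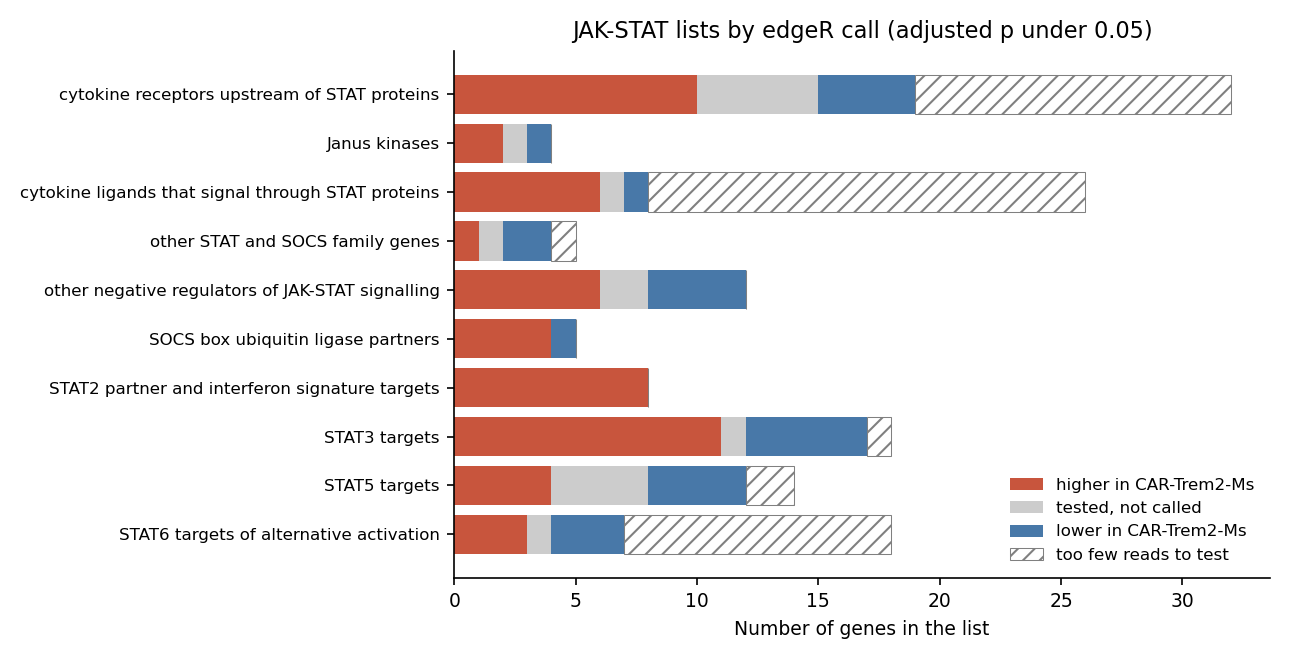
Number of genes (x axis) in 10 JAK-STAT lists that were higher (red), lower (blue) or not called (grey) in CAR-Trem2-Ms by edgeR at an adjusted p under 0.05, with genes too low to test hatched. All 8 genes of the STAT2 partner and interferon list were higher, and every other list held genes that fell. The lists were chosen with earlier results of these data known.

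For each tested member, the most alike of 11087 other tested genes was taken as the one at the smallest distance between log2 CPM centred on the gene mean over the 6 samples. Haghl was nearest to Stat2 (distance 0.13), Evi5 to Stat3 (0.06), Smcr8 to Stat6 (0.04) and Tial1 to Socs3 (0.05). Zscan22 was nearest to Stat5a (0.08), Sp2 to Stat5b (0.10), Cog8 to Socs1 (0.34) and Ppp1r32 to Cish (0.45). With 2 groups, such likeness mostly repeats the size of the group difference.

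Markers of other cells moved with the groups at low levels. The 6 neutrophil markers summed to 15.4 to 27.4 CPM in CAR-Ms, against 2.22 to 4.99 CPM in CAR-Trem2-Ms, with 4 of 4 tested lower, and the 3 B cell markers to 7.60 to 11.8 CPM against 2.59 to 3.51 CPM, with 3 of 3 lower. The 4 T cell markers summed to 0.54 to 0.72 CPM against 3.50 to 5.84 CPM, and the 3 monocyte markers to 4.41 to 5.53 CPM against 9.28 to 11.3 CPM, with both tested genes of each list higher. The 3 endothelial markers summed to 3.10 to 4.18 CPM against 0.60 to 2.02 CPM, with both tested genes lower. The markers of dendritic cells and fibroblasts stayed under 5 CPM in sum in every sample, with 1 gene of each list tested and none called. No marker of natural killer cells, mast cells or keratinocytes had enough reads to be tested. Ncr1 and Klrb1c, of natural killer cells, had no read in any sample, but Eomes of the same list averaged 0.47 CPM in CAR-Ms and 0.71 CPM in CAR-Trem2-Ms. Among mast cell markers Cpa3 had no read, Kit averaged 0.065 and 0.18 CPM and Mcpt4 0.020 and 0.035 CPM. Among keratinocyte markers Krt5 and Krt10 had no read, and Krt14 averaged 0.020 CPM in CAR-Ms with none in CAR-Trem2-Ms. The part of these markers, and of the mitochondrial share, in the differences of Stat2, Stat3, Socs1 and the other members was not tested.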

How the data were processed

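Per the labels' protocols, Trizol was used to extract RNA, and a SMARTER kit served to prepare the libraries. Per the submitters' processing notes, the authors worked on mm10 with StringTie 1.3.1, HISAT2, Bowtie2 2.2.8 and fastp 0.18.0. The counting tool, its annotation and its strand setting were not given in the sources used here. Without strand, the overlapping ends of Stat3 and Stat5a cannot be told apart. Per the file headers, the authors deposited whole read counts per gene and TPM values for each of the 6 samples. The deposited log2 fold change equals the log2 ratio of the authors' group means of TPM; the deposited p-value and adjusted p-value come from a test of the authors, whose name was not found in the labels or headers.

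The test on counts was that of edgeR 4.0.16 under R 4.3.3 (quasi-likelihood test, TMM factors, filterByExpr, Benjamini-Hochberg over 11402 genes), run also on simulated counts. The simulation changed few genes, equally up and down, whereas 81.1% of tested genes were called here. It therefore does not check the scaling of these data. The SE is the log2 fold change over the root of its F value. Levels are CPM with TMM factors; SDs are over 3 samples. TPM values were tested with limma 3.58.1 on log2(TPM + 1) over genes of at least 1 TPM in 3 samples. Alternatives were RLE and upper quartile factors, total counts, DESeq2 1.42.0, limma-voom, no filter, a filter of 10 reads in all samples of either group, a pseudocount of 0.1, a replicate block, each sample left out, no mitochondrial genes, and a GC content and length trend (GENCODE M21, splines of 5 degrees of freedom) removed through offsets. Ratios used counts plus 0.5. Replicate pairs differed by more than sampling noise (chi-square per degree of freedom of 2.19 to 3.34), so no pair was merged as 1 library deposited under 2 names; this does not show that the samples are independent cultures. Intervals and counts cover no PCR duplication. The members and lists were chosen with earlier results of these data known. The text names all 9 members and, from each list, the called genes with the largest change, at most 3, provided that the higher group averaged 50 reads or more.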

Additional observations from a re-analysis of the deposited data

How the results depend on the processing

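Over the 18 alternative fits, Stat2 and Stat3 kept direction and call. The 6 called members became 3 (2 higher, 1 lower) when a change of at least 2-fold was also asked, as the genes changed became 3765 and the pathway genes called 44. On log2(TPM + 1) and log2(TPM + 0.1) Stat5a turned to -0.38 and -0.42, Stat5b to -0.57 and -0.64 and Socs3 to -0.48 and -0.49, all called lower; Socs1 stood at 0.21 and 0.37, not called; Socs5 turned to -0.49 and -0.54 and Rbx1 to -0.026 and -0.027. The TPM scale lies below the count scale by a nearly common factor, given above. With the GC content and length trend removed, Stat5a (0.20) and Socs1 (0.64) lost the call, Stat5b (0.27) gained it and Socs3 turned to -0.36; with upper quartile factors Stat5b gained it (0.28) and Stat6 lost it (-0.031); with total-count scaling Socs3 lost it (0.068), and Stat5b (-0.077) and Cish (-0.053) changed sign without a call. The cause of these shifts was not tested.

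Leaving out each sample in turn moved Stat5b between -0.021 and 0.12, Cish between -0.16 and 0.38, and the log2 difference of the ratio of Cish to Stat5a plus Stat5b between -0.40 and 0.13, with no call gained or lost by any member. That of Socs2 to STAT5 was -2.04 with TPM in place of counts. Same-numbered samples did not deviate together (correlations of 0.04, -0.02 and 0.03), so no pairing by number was detected. With 3 samples a group, this does not show that same-numbered samples are unpaired. A replicate block gave the same 4 higher and 2 lower members and 9188 changed genes against 9245. Of 540 values for 30 list genes, 536 kept direction and call. Socs1, Socs2 and Cish, with 1 to 53 reads per sample, are limited by depth.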
